A study of Homo sapiens with 42 samples.

Results

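A set of 8 genes that are bound by menin and KMT2A in acute myeloid leukaemia, apart from the HOX cluster and MEIS1, were followed across all 14 groups of the study: RUNX1, RUNX2, ZEB2, SATB1, JMJD1C, LMO2, EYA1 and IKZF2. They were taken from the table of read counts by their gene symbols, and all 8 of 8 were found among 58868 genes. RNA was measured by RNA-seq in NOMO1, an acute myeloid leukaemia line with a rearranged KMT2A gene, and in OCI-AML3, a line of the same disease that carries cytoplasmic mutant NPM1. Each group had 3 libraries, 42 in all. The drugs were the menin inhibitor VTP-50469 at 100 nM and the MEK inhibitor selumetinib at 100 nM, in a study of joint menin and MEK inhibition.

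In each line the groups were the combination at day 3 and day 6, VTP-50469 alone at day 3 and day 6, selumetinib alone, and the solvent DMSO at day 3 and day 6. The age of the selumetinib libraries is uncertain: the protocol gives 1 day, the title of replicate 1 gives day 1 and the titles of replicates 2 and 3 give day 3. No DMSO group of 1 day is labelled, so selumetinib was set against DMSO day 3. How long selumetinib lasted within the combination is not stated. Each genotype is represented by a single cell line, and nothing in the labels states that the 3 libraries of each group are separate cultures, so the p-values below measure only the spread between these libraries, which may be technical.

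Menin is a scaffold protein that holds the histone methyltransferase KMT2A, and the fusion proteins made from it, at a set of target genes. VTP-50469 occupies the pocket of menin that binds KMT2A. Leukaemias with mutant NPM1 also rely on this complex for part of their gene program, although their own KMT2A genes are intact. KMT2A contacts DNA through a CXXC domain that recognises unmethylated CpG, so its targets often start in CpG islands.

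The members are regulators of transcription with different roles. RUNX1, at chr21:34787801-36004667 on the minus strand, encodes the DNA-binding subunit of core binding factor and is needed for blood formation. RUNX2, at chr6:45328157-45664349 on the plus strand, encodes its relative best known from bone. ZEB2, at chr2:144364364-144524583 on the minus strand, encodes a zinc finger repressor that guides blood cell maturation. SATB1, at chr3:18345387-18445588 on the minus strand, encodes a chromatin organiser best known from T cells. JMJD1C, at chr10:63167221-63521850 on the minus strand, encodes a Jumonji-domain protein that acts as a coactivator in leukaemia cells. LMO2, at chr11:33858576-33892289 on the minus strand, encodes an adaptor that joins TAL1 and GATA factors through LDB1. EYA1 encodes a transcriptional coactivator with phosphatase activity, and IKZF2, at chr2:212999691-213152427 on the minus strand, encodes Helios, a zinc finger factor of the Ikaros family. Positions are on build hg38 (GENCODE 29).

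The promoters of RUNX2 and JMJD1C are shown. Among the 7 members tested in NOMO1, these genes had the largest rise and fall under VTP-50469 day 6 over DMSO day 6. Capitals mark CG dinucleotides, the letters that the CXXC domain can contact, and TGTGGT or its reverse complement ACCACA, the core of the RUNX binding motif. Each window holds the 250 bases before a transcription start in RefSeq (GRCh38.p14), given 5′ to 3′ on the strand of the gene. RUNX2 has a distal and a proximal promoter, and gene counts do not tell their transcripts apart.
JMJD1C, chr10:63521891-63522140, minus strand: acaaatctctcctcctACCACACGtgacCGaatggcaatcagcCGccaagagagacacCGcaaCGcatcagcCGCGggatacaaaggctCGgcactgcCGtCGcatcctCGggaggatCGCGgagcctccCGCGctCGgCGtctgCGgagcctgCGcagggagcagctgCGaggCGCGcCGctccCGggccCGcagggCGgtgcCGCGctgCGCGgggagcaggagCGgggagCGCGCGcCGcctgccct
RUNX2 distal, chr6:45328080-45328329, plus strand: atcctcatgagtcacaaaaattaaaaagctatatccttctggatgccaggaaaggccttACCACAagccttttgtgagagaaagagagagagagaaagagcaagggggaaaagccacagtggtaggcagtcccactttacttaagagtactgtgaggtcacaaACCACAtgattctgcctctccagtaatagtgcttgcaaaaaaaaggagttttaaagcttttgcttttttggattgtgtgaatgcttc
RUNX2 proximal, chr6:45422025-45422274, plus strand: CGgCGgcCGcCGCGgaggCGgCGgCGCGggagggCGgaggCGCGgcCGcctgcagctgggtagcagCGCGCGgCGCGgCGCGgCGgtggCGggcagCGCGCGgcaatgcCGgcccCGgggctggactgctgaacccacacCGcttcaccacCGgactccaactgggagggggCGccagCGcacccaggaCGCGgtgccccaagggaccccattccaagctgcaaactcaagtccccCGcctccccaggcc
The JMJD1C window held 35 CG, and 5.80% of 35114 RefSeq promoter windows of this length held at least as many. JMJD1C has 3 windows in RefSeq, of which the one shown lies furthest upstream and the others held 34 and 5 CG. The proximal RUNX2 window held 34 CG, a number reached by 6.84% of windows, while the distal window held 0. The median over all windows was 11 CG. TGTGGT on either strand occurred 2 times in the distal RUNX2 window, 1 time in the JMJD1C window and 0 times in the proximal RUNX2 window, and 11% of all windows held it. RefSeq windows were found for 6 of the 8 members. The RUNX1 window on chr21 held 32 CG and the ZEB2 window on chr2 held 12. The SATB1 windows held 24, 6, 9 and 10 CG, and the IKZF2 windows 6 and 4. Of the 13 member windows, 6 held more CG than the median.

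Total counts ran from 15264862 to 29168628 per library in NOMO1 and from 15561248 to 24262960 in OCI-AML3. Values below are CPM (library-size scaled counts), scaled by TMM within a line unless said otherwise. Of the members, 7 passed the filter on low counts in each line and IKZF2 did not. Marker values are CPM of library totals without TMM. Markers of both lines were myeloid: PTPRC, CD33, SPI1, CEBPA and LYZ were at 26.0 CPM or more in every NOMO1 group. In every OCI-AML3 group they were at 43.6 CPM or more. MPO stood at 2786 to 13241 CPM over the NOMO1 groups, against only 0.606 to 2.49 CPM over the OCI-AML3 groups. Of the T and NK cell markers, NOMO1 held NKG7 at 108 to 179 CPM, CD3D at 4.56 to 37.7 and CD3E at 1.84 to 5.24. CD3G, CD2 and CD7 stayed at or below 0.668, 0.155 and 0.330 CPM in every NOMO1 group. The libraries carry no strand, so reads from shared bases of a gene and of one on the opposite strand cannot be told apart. JMJD1C shares 387 exonic bases with its antisense gene JMJD1C-AS1 (1333 counts, against 66212 of JMJD1C), and ZEB2 shares 1299 with ZEB2-AS1 (264, against 160761). SATB1 shares 211 with TBC1D5 on the same strand (148779, against 233691), where strand would not separate the reads either. Of the libraries that stood apart, VTP-50469 day 3 replicate 1 in NOMO1 differed from the other libraries of its group by a mean chi-square per gene of 67.1 and 72.4, against 6.39 between those others. VTP-50469 day 3 replicate 2 in OCI-AML3 differed from its group by 31.9 and 30.7, against 4.32 between the others. The NOMO1 DMSO day 3 libraries stood apart as a group: mitochondrially encoded genes took 17.7% ± 0.197 of their counts (SD, n = 3), against 3.17% ± 0.480 in DMSO day 6. In bulk RNA, fewer cells that express a gene and less RNA per cell cannot be told apart.

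Without drug the lines differed at most members. To compare genes, CPM were divided by the merged exon length in kilobases, with both lines on 1 scale. At day 6 in DMSO, the order of levels in NOMO1 was LMO2 at 44.2 ± 2.90, JMJD1C at 18 ± 1.22, RUNX1 at 7.56 ± 0.174, SATB1 at 5.30 ± 0.352, ZEB2 at 4.0 ± 0.294 and RUNX2 at 0.988 ± 0.131 CPM per kilobase (SD, n = 3 each). In OCI-AML3 the order was LMO2 at 67.7 ± 3.83, SATB1 at 39.8 ± 1.38, RUNX2 at 16.8 ± 0.705, ZEB2 at 9.01 ± 0.380, RUNX1 at 7.06 ± 0.278 and JMJD1C at 4.02 ± 0.0628 CPM per kilobase (SD, n = 3 each). The mean ± SD of neighbours in these orders did not overlap, and EYA1 and IKZF2 stood below 0.05 CPM per kilobase in both lines. In log2 fold change of NOMO1 over OCI-AML3, JMJD1C was higher by 2.17 ± 0.10 (SE). RUNX2 was lower at -4.09 ± 0.13, SATB1 at -2.91 ± 0.07, ZEB2 at -1.17 ± 0.08 and LMO2 at -0.61 ± 0.08. In edgeR's quasi-likelihood test with Benjamini-Hochberg adjustment over 18707 genes, the largest adjusted p among these was 2.72e-09. RUNX1 differed by 0.10 (95% interval -0.08 to 0.28), which did not pass. Thus 1 of 8 members was higher in NOMO1 and 4 were lower, where 32.7% of all genes tested were higher and 28.6% lower.

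**Figure D1:**
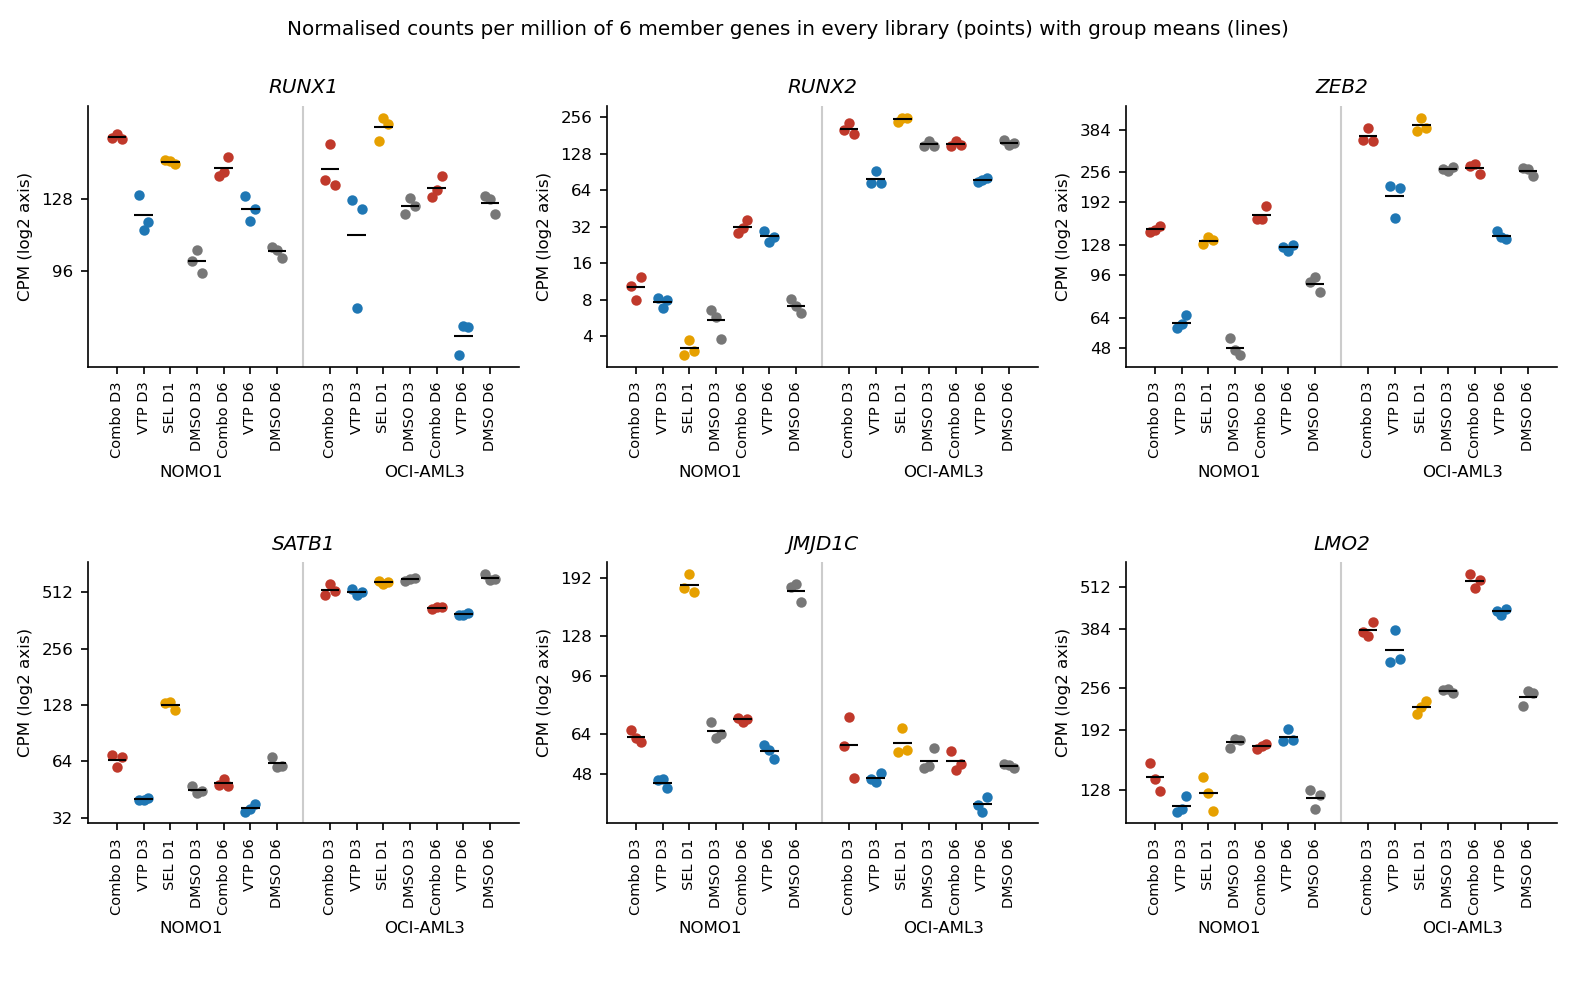
Each point is the CPM of a library (log2 axis, TMM-scaled within a line) and each line a group mean, with NOMO1 left and OCI-AML3 right in each panel (Combo, combination; VTP, VTP-50469; SEL, selumetinib; D, labelled day). RUNX2 stood at 24.1 to 29.2 CPM under VTP-50469 at day 6 in NOMO1 and at 74.8 to 81.4 CPM in OCI-AML3, above its day 6 DMSO libraries in NOMO1 and below them in OCI-AML3.

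In OCI-AML3, 6 days of VTP-50469 lowered 5 of the 7 members tested and raised LMO2. RUNX2 stood at 74.8, 78.1 and 81.4 CPM under VTP-50469, against 166, 152 and 157 CPM in DMSO day 6. ZEB2 stood at 146, 139 and 135 CPM under VTP-50469, against 268, 263 and 247 CPM in DMSO. RUNX1 stood at 68.3, 76.8 and 76.6 CPM, against 130, 128 and 121 CPM in DMSO. For each of these genes every drug library lay below every DMSO library. The share of all genes whose libraries separate in this way was not measured, here or in the comparisons below. Such separation therefore does not mark out the members. The log2 fold changes were -1.02 ± 0.08 for RUNX2, -0.89 ± 0.09 for ZEB2 and -0.77 ± 0.11 for RUNX1, with adjusted p of 1.09e-10, 1.88e-09 and 1.34e-06 in edgeR's quasi-likelihood test.

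SATB1, the most abundant of these factors per length in OCI-AML3 after LMO2, stood at 387, 390 and 399 CPM under VTP-50469, against 640, 599 and 602 CPM in DMSO day 6. JMJD1C stood at 38.8, 36.9 and 40.8 CPM, against 51.8, 51.3 and 50.3 CPM in DMSO. LMO2 went the other way, at 434, 424 and 441 CPM under VTP-50469, against 227, 251 and 247 CPM in DMSO. The drug and DMSO libraries did not overlap for any of these genes. SATB1 changed by -0.65 ± 0.06 and JMJD1C by -0.40 ± 0.11 on the log2 scale, and LMO2 by 0.84 ± 0.07 (adjusted p of 1.05e-09, 0.00588 and 2.69e-10 in edgeR's quasi-likelihood test). Over all genes tested in this comparison, 18.8% were higher and 16% lower, and the median log2 fold change was 0.01, against -0.65 over the 7 members tested. Beside LMO2, PECAM1, a marker of endothelial cells, which also express LMO2, was at its highest in the treated groups: the summed CPM of the endothelial markers PECAM1, CDH5 and VWF was 68.9 to 80.5 under VTP-50469 day 6, against 13.5 to 14.4 in DMSO day 6. CDH5 and VWF stayed at or below 0.611 and 0.191 CPM in every OCI-AML3 group.

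At day 3 the same drug had lowered 3 members and raised LMO2 in OCI-AML3, where 4.42% of all genes tested were lower and 6.49% higher. RUNX2 was already at 72.9, 91.9 and 74.1 CPM under VTP-50469, against 149, 162 and 148 CPM in DMSO day 3. Its log2 fold change was -0.94 ± 0.08 (adjusted p = 2.87e-09, edgeR quasi-likelihood). ZEB2 changed by -0.37 ± 0.08 and SATB1 by -0.22 ± 0.06, while LMO2 changed by 0.40 ± 0.07 (adjusted p of 0.00311, 0.0145 and 0.000249, edgeR quasi-likelihood). RUNX1 at -0.17 ± 0.10 and JMJD1C at -0.17 ± 0.11 did not pass. Without the library that stood apart, replicate 2 of VTP-50469 day 3, the RUNX1 value was 0.01, and the SATB1 call was lost at -0.19 with an adjusted p of 0.0710. The SATB1 call was also lost without DMSO day 3 replicate 2 or 3, at -0.21 in both fits, and with only the compared groups in the fit the SATB1 and ZEB2 calls were both lost (adjusted p of 0.0660 and 0.0523).

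Set against each other, the 2 days of VTP-50469 differed for ZEB2, RUNX1 and SATB1 but not detectably for RUNX2. From day 3 to day 6 RUNX1 changed by -0.59 ± 0.11, ZEB2 by -0.54 ± 0.09 and SATB1 by -0.40 ± 0.06 on the log2 scale, and LMO2 by 0.38 ± 0.07 (largest adjusted p 0.000345, edgeR quasi-likelihood). RUNX2 changed by -0.03 (95% interval -0.20 to 0.14). Over all genes, 9.8% were higher and 8.65% lower at day 6. Between the DMSO days no gene passed, higher or lower (0% and 0%), although 174 of 16384 genes had an unadjusted p under 0.05 and DESeq2 called 1 higher, and no member moved by more than 0.06 apart from EYA1, whose day 3 DMSO libraries had 0 counts.

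Selumetinib alone raised RUNX2, ZEB2 and RUNX1 in OCI-AML3. RUNX2 stood at 235, 253 and 254 CPM under selumetinib, against 149, 162 and 148 CPM in DMSO day 3. ZEB2 stood at 380, 431 and 393 CPM, against 265, 258 and 268 CPM. RUNX1 stood at 162, 178 and 173 CPM, against 121, 129 and 125 CPM. All selumetinib libraries lay above all DMSO libraries for each gene. The log2 fold changes were 0.69 ± 0.08, 0.61 ± 0.08 and 0.46 ± 0.10, with adjusted p of 1.56e-07, 1.97e-06 and 0.00123 (edgeR quasi-likelihood). SATB1, JMJD1C, LMO2 and EYA1 did not pass, and 11.7% of all genes tested were higher and 15.6% lower.

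When selumetinib was added to VTP-50469 in OCI-AML3, the genes that the menin inhibitor had lowered stood higher than under VTP-50469 alone at day 6, though SATB1 by an amount that did not pass in the fit of all groups. At day 6, RUNX2 stood at 148, 163 and 151 CPM in the combination, against 74.8, 78.1 and 81.4 CPM under VTP-50469. ZEB2 stood at 273, 278 and 251 CPM, against 146, 139 and 135 CPM. RUNX1 stood at 129, 133 and 141 CPM, against 68.3, 76.8 and 76.6 CPM. None of these libraries overlapped between the groups. The log2 fold changes of the combination over VTP-50469 were 0.98 ± 0.08 for RUNX2, 0.93 ± 0.09 for ZEB2, 0.86 ± 0.11 for RUNX1, 0.44 ± 0.11 for JMJD1C and 0.30 ± 0.07 for LMO2 (largest adjusted p 0.00206, edgeR quasi-likelihood). SATB1 stood at 417, 426 and 426 CPM in the combination, against 387, 390 and 399 CPM, a change of 0.11 (95% interval -0.01 to 0.23) that did not pass in this fit although the libraries did not overlap. It passed at 0.16 (adjusted p = 0.0211) when the fit held only the compared groups, and at 0.15 with DESeq2 (adjusted p = 0.0125) or with RLE size factors (adjusted p = 0.0373). Of the 7 members, 5 were higher and 0 lower, where 16.7% of all genes tested were higher and 24.6% lower.

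At day 3 the same contrast gave 1.38 ± 0.08 for RUNX2, 0.82 ± 0.08 for ZEB2, 0.38 ± 0.10 for RUNX1, 0.33 ± 0.11 for JMJD1C and 0.20 ± 0.07 for LMO2 (largest adjusted p 0.0269, edgeR quasi-likelihood). Thus 5 of 7 members were higher and 0 lower, where 18.2% of all genes tested were higher and 24% lower. The JMJD1C call was lost without combination day 3 replicate 2 (0.16, adjusted p = 0.259), the library with the highest JMJD1C level of its group at 72.0 CPM, against 58.5 and 46.7 CPM in the others. The LMO2 call was lost without combination replicate 3 (0.15), VTP-50469 replicate 1 (0.13) or VTP-50469 replicate 3 (0.15). With only the compared groups in the fit, 2 of the 7 passed, RUNX2 and ZEB2, while over all genes that fit called 2573 higher and 3351 lower, against 2980 and 3927 with all groups.

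Compared with DMSO, the OCI-AML3 combination at day 6 showed no detectable change of RUNX2, ZEB2, RUNX1 and JMJD1C. Their log2 fold changes were -0.04 (95% interval -0.21 to 0.13), 0.04 (-0.13 to 0.22), 0.09 (-0.13 to 0.30) and 0.05 (-0.18 to 0.27). SATB1 was lower at -0.54 ± 0.06, and LMO2 was higher at 1.14 ± 0.07 with 558, 508 and 536 CPM in the combination, against 227, 251 and 247 CPM in DMSO (adjusted p of 1.22e-08 and 1.78e-13, edgeR quasi-likelihood). With EYA1, 2 members were higher and 1 lower, where 23.1% of all genes tested were higher and 26.5% lower. EYA1 passed the filter only through treated libraries. Mitochondrially encoded genes took 12.3% ± 2.27 of the counts in this combination group, against 3.24% ± 0.665 in DMSO day 6 (SD, n = 3 each), and their part in these results was not tested beyond scaling without them, which changed no call of the 7 members tested. The endothelial markers summed to 127 to 138 CPM in the combination, against 13.5 to 14.4 CPM in DMSO, with PECAM1 as nearly the whole sum.

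At day 3 the OCI-AML3 combination stood above DMSO for RUNX2 at 0.43 ± 0.08, ZEB2 at 0.45 ± 0.08 and LMO2 at 0.60 ± 0.07, and below it for SATB1 at -0.19 ± 0.06 (adjusted p of 5.71e-05, 4.62e-05, 4.28e-08 and 0.0109, edgeR quasi-likelihood). With EYA1, 4 members were higher and 1 lower, where 22.3% of all genes tested were higher and 25.8% lower. Only treated libraries took EYA1 through the filter. The SATB1 call was lost without combination replicate 1, at -0.14 (adjusted p = 0.0677), with only the compared groups in the fit (-0.15) and with library totals (-0.06). JMJD1C, at 0.16, passed without combination replicate 3 (0.30, adjusted p = 0.0200) but was at -0.02 without combination replicate 2 (adjusted p = 0.925). It passed with library totals (0.29, adjusted p = 0.0365), and RUNX1, at 0.21, passed with only the compared groups (0.25, adjusted p = 0.00781). An interaction term asked whether the combination differed from the sum of its parts on the log2 scale. RUNX2 stood 0.68 ± 0.12 above that sum and LMO2 0.36 ± 0.10 above it (adjusted p of 0.000225 and 0.0227, edgeR quasi-likelihood), 2 higher and 0 lower of 7, where 2.67% of all genes tested were higher and 6.27% lower. The LMO2 interaction was lost without any 1 of 7 of the 12 libraries in it (combination replicate 3, VTP-50469 replicates 1 and 3, selumetinib replicates 1 and 2, DMSO replicates 1 and 2), at 0.29 to 0.35, and at 0.30 with DMSO day 6 as the control. Because selumetinib alone and the combination may differ in exposure time, time and interaction cannot be told apart.

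**Figure D2:**
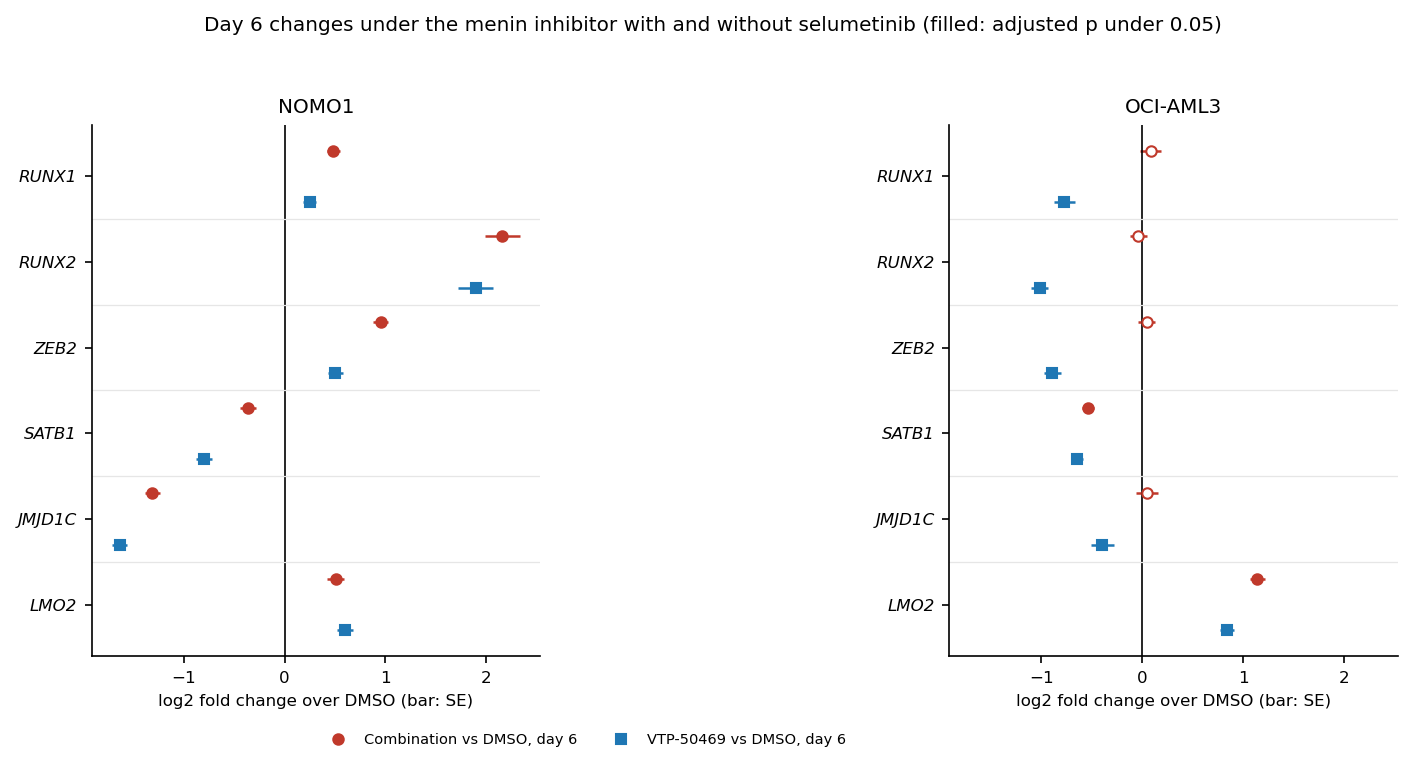
Points are log2 fold changes over DMSO day 6 with bars of 1 SE, for the combination (circles) and VTP-50469 (squares) in NOMO1 (left) and OCI-AML3 (right), filled where the adjusted p was under 0.05. In OCI-AML3 the squares of RUNX1, RUNX2, ZEB2 and JMJD1C lie left of 0 with the circles near 0, while RUNX2 lies at 2.16 and 1.90 in NOMO1.

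In NOMO1, 6 days of VTP-50469 lowered JMJD1C and SATB1 and raised RUNX2, LMO2, ZEB2 and RUNX1. JMJD1C stood at 59.2, 57.1 and 53.5 CPM under VTP-50469, against 181, 184 and 163 CPM in DMSO day 6. SATB1 stood at 34.5, 35.6 and 38.0 CPM, against 67.7, 59.8 and 60.5 CPM. RUNX2, which was scarce in this line, stood at 29.2, 24.1 and 26.4 CPM, against 8.15, 7.05 and 6.22 CPM. No treated library overlapped the DMSO libraries for these genes. On the log2 scale JMJD1C changed by -1.64 ± 0.07, SATB1 by -0.80 ± 0.08 and RUNX2 by 1.90 ± 0.17 (adjusted p of 3.19e-16, 1.63e-09 and 5.22e-10, edgeR quasi-likelihood).

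LMO2 stood at 179, 194 and 179 CPM under VTP-50469 in NOMO1, against 128, 112 and 124 CPM in DMSO day 6. ZEB2 stood at 126, 121 and 128 CPM, against 89.6, 94.0 and 81.4 CPM. RUNX1 stood at 130, 117 and 123 CPM, against 106, 105 and 101 CPM. The groups did not overlap, though for RUNX1 the gap was narrow. LMO2 changed by 0.60 ± 0.08, ZEB2 by 0.50 ± 0.07 and RUNX1 by 0.25 ± 0.07 (adjusted p of 4.46e-07, 2.26e-06 and 0.00225, edgeR quasi-likelihood). In all 4 of 7 members were higher and 2 lower, where 23.7% of all genes tested were higher and 25.1% lower, and the median log2 fold change was 0.25 over the members and -0.01 over all genes. Beside RUNX2, the summed CPM of the epithelial and stromal markers was 32.8 to 41.6 under VTP-50469 day 6, against 30.5 to 33.2 in DMSO day 6 in NOMO1. In OCI-AML3, where RUNX2 was lower, it was 49.5 to 72.2 under VTP-50469, against 0.637 to 1.28 in DMSO. COL1A1 led this sum in NOMO1 and COL1A2 in OCI-AML3, and its part in the RUNX2 results was not tested. Beside LMO2, the endothelial markers summed to 410 to 438 CPM under VTP-50469 in NOMO1, against 236 to 254 CPM in DMSO, with CDH5 and VWF at or below 0.360 and 0.544 CPM in every group.

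In NOMO1 the combination at day 6 raised RUNX2, ZEB2, LMO2 and RUNX1 and lowered JMJD1C and SATB1 over DMSO, 4 higher and 2 lower of 7, where 27.3% of all genes tested were higher and 28.2% lower. RUNX2 stood at 28.6, 31.0 and 36.1 CPM in the combination, a change of 2.16 ± 0.17, and ZEB2 at 163, 165 and 185 CPM, a change of 0.95 ± 0.07. JMJD1C stood at 71.8, 69.8 and 71.2 CPM, a change of -1.31 ± 0.07, and SATB1 at 48.0, 51.2 and 47.0 CPM, a change of -0.36 ± 0.08. LMO2 changed by 0.51 ± 0.08 and RUNX1 by 0.48 ± 0.07. Beside these changes, the epithelial and stromal markers summed to 104 to 111 CPM in the combination, against 30.5 to 33.2 CPM in DMSO day 6, and the endothelial markers to 468 to 526 CPM, against 236 to 254 CPM. COL1A1 held most of the former sum and PECAM1 most of the latter. Over the NOMO1 groups COL1A2, PDGFRB, EPCAM and KRT19 stayed at or below 0.568, 3.19, 5.89 and 7.84 CPM. CDH5 and VWF stayed at or below 0.360 and 0.544 CPM. The part of these markers in the results was not tested. The largest adjusted p of the 6 member changes was 0.000202 (edgeR quasi-likelihood).

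Over VTP-50469 alone at day 6 in NOMO1, the combination stood higher for ZEB2 by 0.45 ± 0.07, SATB1 by 0.44 ± 0.08, JMJD1C by 0.33 ± 0.07 and RUNX1 by 0.23 ± 0.07 on the log2 scale (adjusted p of 3.48e-05, 8.98e-05, 0.00115 and 0.00767, edgeR quasi-likelihood). RUNX2 at 0.26 (95% interval -0.07 to 0.59) and LMO2 at -0.10 (-0.26 to 0.07) did not pass. Thus 4 of 7 members were higher and 0 lower, where 12.4% of all genes tested were higher and 15.2% lower. The RUNX1 call was lost without VTP-50469 day 6 replicate 2, at 0.20 (adjusted p = 0.0566), and without a filter on low counts (adjusted p = 0.0528), and RUNX2 passed at 0.27 (adjusted p = 0.0436) with only the compared groups in the fit. At day 3 the combination stood above VTP-50469 for ZEB2 by 1.28 ± 0.08, SATB1 by 0.70 ± 0.08, JMJD1C by 0.47 ± 0.07, RUNX1 by 0.46 ± 0.07 and LMO2 by 0.28 ± 0.08 (largest adjusted p 0.00729, edgeR quasi-likelihood). That made 5 of 7 higher and 0 lower, where 15.9% of all genes tested were higher and 19.2% lower. The LMO2 call was lost without combination replicate 1 (0.21, adjusted p = 0.0752). RUNX2 at 0.42 ± 0.18 did not pass, but did at 0.47 without VTP-50469 replicate 1, the library that stood apart, and at 0.56 without combination replicate 2.

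**Figure D3:**
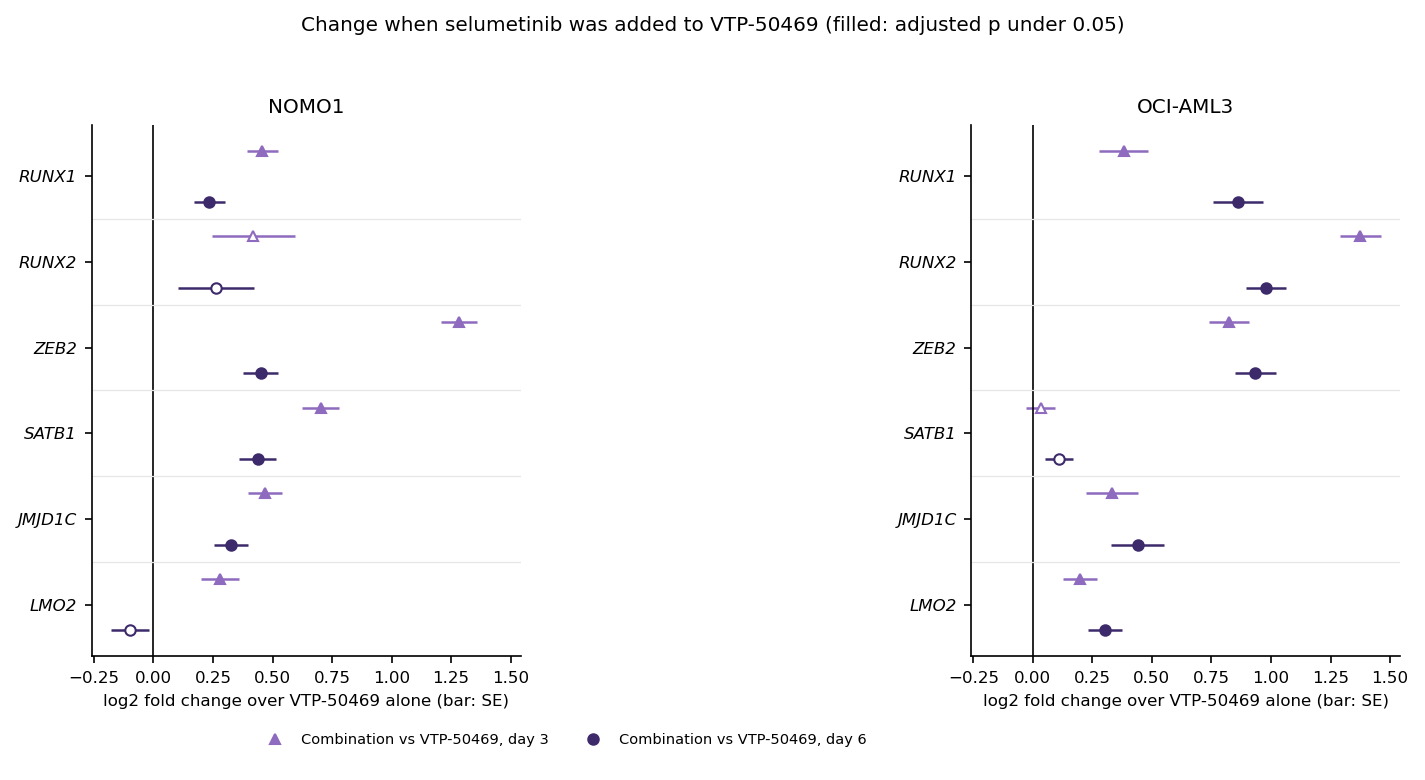
Points are log2 fold changes of the combination over VTP-50469 alone with bars of 1 SE, at day 3 (triangles) and day 6 (circles) in NOMO1 (left) and OCI-AML3 (right), filled where the adjusted p was under 0.05. RUNX2 reached 1.38 at day 3 and 0.98 at day 6 in OCI-AML3, SATB1 is unfilled there, and SATB1 is filled at 0.70 and 0.44 in NOMO1.

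The day 3 and selumetinib comparisons of NOMO1 depended on which DMSO group was the control, since the DMSO groups of this line differed. DMSO day 6 stood above DMSO day 3 for JMJD1C by 1.43 ± 0.07, ZEB2 by 0.88 ± 0.08 and SATB1 by 0.48 ± 0.08, and below it for LMO2 at -0.55 ± 0.08 (largest adjusted p 7.56e-06, edgeR quasi-likelihood). That is 3 of 7 members higher and 1 lower, where 28.8% of all genes tested were higher and 22.3% lower. JMJD1C stood at 69.3, 62.3 and 63.8 CPM in DMSO day 3, far below its 181, 184 and 163 CPM at day 6. RUNX2, at 0.40 ± 0.18, did not pass, but did without DMSO day 3 replicate 1 (0.60) or DMSO day 6 replicate 3 (0.52). The day 3 and selumetinib comparisons of NOMO1 over DMSO are therefore given with both controls. The day 6 comparisons were made over DMSO day 6 only, and their dependence on the control was not tested. Mean JMJD1C under VTP-50469 day 6 was 56.6 CPM, against 176 in DMSO day 6 but 65.1 in DMSO day 3. Mean LMO2 was 184 CPM, against 121 in DMSO day 6 but 177 in DMSO day 3. Mean RUNX2, at 26.6 CPM, stood well above both, at 7.14 in DMSO day 6 and 5.38 in DMSO day 3.

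VTP-50469 day 3 over DMSO day 3 raised RUNX2 by 0.50 ± 0.19, ZEB2 by 0.34 ± 0.08 and RUNX1 by 0.27 ± 0.07 and lowered LMO2 at -0.62 ± 0.08 and JMJD1C at -0.52 ± 0.07 (largest adjusted p 0.0259, edgeR quasi-likelihood), 3 higher and 2 lower of 7, where 29.7% of all genes tested were higher and 22.7% lower. Over DMSO day 6, the values were 0.10 for RUNX2, -0.53 for ZEB2, 0.21 for RUNX1, -0.08 for LMO2, -1.96 for JMJD1C and -0.64 for SATB1, 1 higher and 3 lower, where 12.7% of all genes were higher and 14.4% lower. ZEB2 thus reversed with the control, RUNX2 and LMO2 lost their calls, and JMJD1C was lower and RUNX1 higher with either control. The RUNX2 call over DMSO day 3 was also lost without VTP-50469 replicate 1 (0.45) or 3 (0.48) or DMSO day 3 replicate 3 (0.32). With only the compared groups in the fit, the RUNX1 and RUNX2 calls over DMSO day 3 were lost (0.22 and 0.46). SATB1, at -0.17 over DMSO day 3, passed at -0.21 with DESeq2 (adjusted p = 0.0223) but was at 0.16 with library totals (adjusted p = 0.0918).

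Selumetinib over DMSO day 3 in NOMO1 raised SATB1 by 1.51 ± 0.08, JMJD1C by 1.5 ± 0.07, ZEB2 by 1.47 ± 0.08 and RUNX1 by 0.58 ± 0.07, and lowered RUNX2 at -0.79 ± 0.20 and LMO2 at -0.50 ± 0.08 (largest adjusted p 0.00171, edgeR quasi-likelihood). That is 4 higher and 2 lower of 7, where 28.9% of all genes tested were higher and 25.2% lower. SATB1 stood at 131, 134 and 120 CPM under selumetinib, against 47.0, 43.5 and 44.6 CPM in DMSO day 3 and 67.7, 59.8 and 60.5 CPM in DMSO day 6. Selumetinib libraries exceeded both controls for SATB1. Over DMSO day 6 the values were 1.03 for SATB1, 0.60 for ZEB2, 0.52 for RUNX1 and -1.19 for RUNX2, all still called, and 0.06 for JMJD1C and 0.049 for LMO2, which were not. Here 3 were higher and 1 lower, where 13.1% of all genes were higher and 19% lower.

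The combination at day 3 stood above DMSO day 3 in NOMO1 for ZEB2 by 1.63 ± 0.08, RUNX2 by 0.92 ± 0.18, RUNX1 by 0.72 ± 0.07 and SATB1 by 0.54 ± 0.08, and below it for LMO2 at -0.34 ± 0.08 (largest adjusted p 0.000606, edgeR quasi-likelihood). That is 4 higher and 1 lower of 7, where 31.1% of all genes tested were higher and 27.5% lower. Over DMSO day 6 it was 0.75 for ZEB2, 0.67 for RUNX1, 0.52 for RUNX2, 0.20 for LMO2 and -1.49 for JMJD1C, 4 higher and 1 lower, where 20.9% of all genes were higher and 24.4% lower. LMO2 reversed with the control and lost its call over DMSO day 3 with library totals (-0.04, adjusted p = 0.728). JMJD1C, at -0.05 without a call over DMSO day 3, was called lower over DMSO day 6. With library totals JMJD1C was called higher over DMSO day 3, at 0.25 (adjusted p = 0.0036, edgeR quasi-likelihood). The interaction at day 3, built on DMSO day 3, was 1.21 ± 0.27 for RUNX2 and 0.78 ± 0.11 for LMO2, and -1.03 ± 0.10 for JMJD1C and -0.81 ± 0.11 for SATB1 (largest adjusted p 0.000750, edgeR quasi-likelihood), 2 higher and 2 lower, where 15.3% of all genes tested were higher and 21.7% lower. With DMSO day 6 it was 1.61 for RUNX2, still called, and -0.33 for SATB1, still called, but 0.41 for JMJD1C, which reversed. ZEB2, at -0.19 without a call over DMSO day 3, was called at 0.69, and LMO2 lost its call at 0.23.

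The days of VTP-50469 can be set against each other in NOMO1 without any DMSO library, but day and length of treatment then cannot be told apart. From day 3 to day 6 the DMSO libraries themselves changed by 0.88 for ZEB2, 1.43 for JMJD1C and -0.55 for LMO2. RUNX2 changed by 0.40 in DMSO, which did not pass. RUNX2 stood at 29.2, 24.1 and 26.4 CPM at day 6, against 8.19, 6.87 and 7.87 CPM at day 3, a log2 change of 1.80 ± 0.17. ZEB2 changed by 1.04 ± 0.08, LMO2 by 0.68 ± 0.08 and JMJD1C by 0.32 ± 0.07 (largest adjusted p 0.000803, edgeR quasi-likelihood). In this contrast 4 of 7 members were higher and 0 lower, where 20.8% of all genes tested were higher and 21.3% lower.

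**Figure D4:**
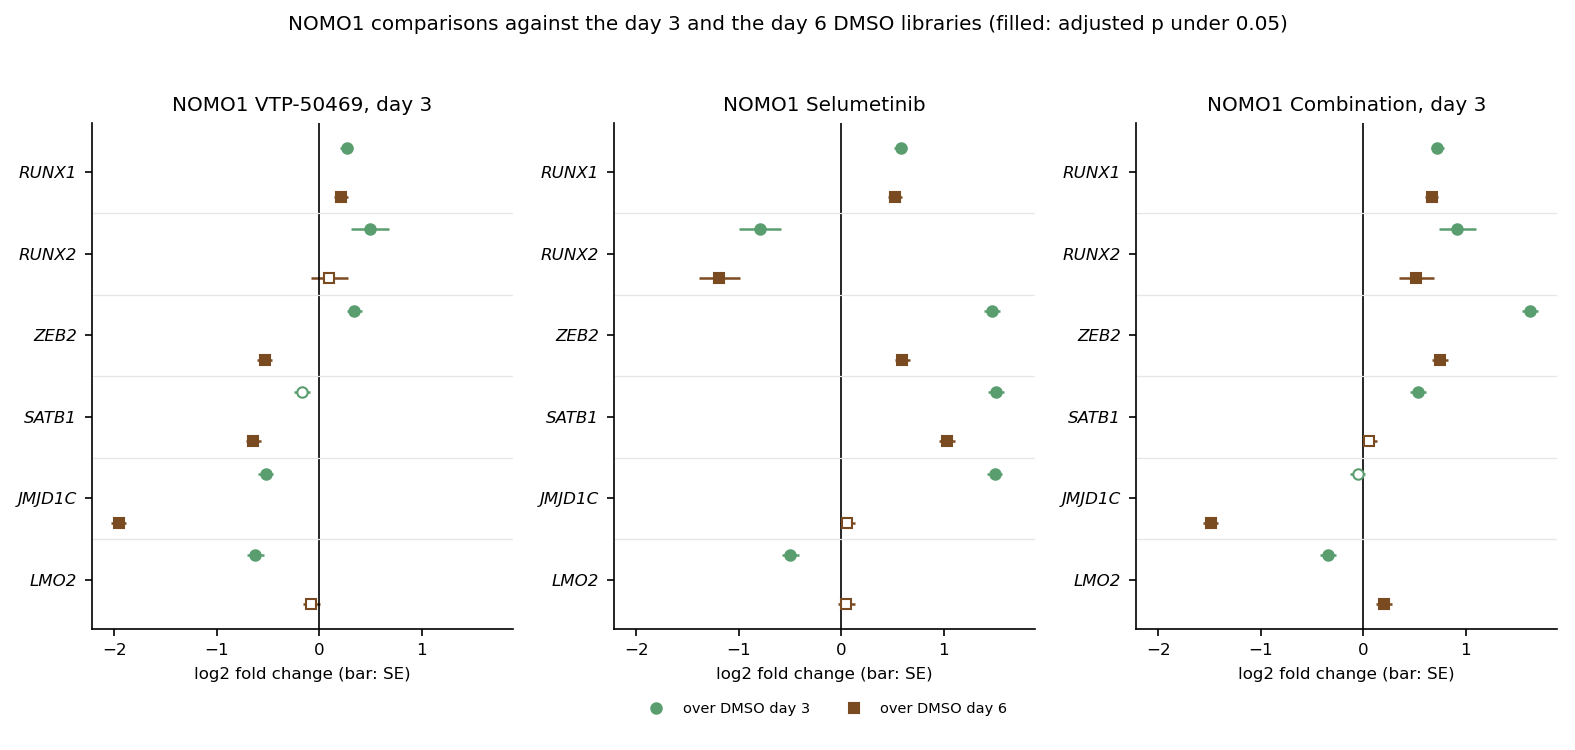
Points are NOMO1 log2 fold changes with bars of 1 SE over DMSO day 3 (circles) and over DMSO day 6 (squares) for VTP-50469 day 3, selumetinib and the combination day 3, filled where the adjusted p was under 0.05. The 2 symbols of RUNX1 stay close in every panel, and those of JMJD1C lie far apart.

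The lines were compared directly in a joint fit, as the log2 fold change in NOMO1 minus that in OCI-AML3. Under VTP-50469 day 6 over DMSO day 6, this difference was 2.98 ± 0.17 for RUNX2, 1.46 ± 0.12 for ZEB2 and 1.09 ± 0.13 for RUNX1, genes that were higher in NOMO1 and lower in OCI-AML3, and -1.17 ± 0.13 for JMJD1C, which was lower in both. The largest adjusted p was 3.49e-09 (edgeR quasi-likelihood), and 3 members were higher and 1 lower of 8, where 16.6% of all genes tested were higher and 16.8% lower. SATB1 was lower in both lines with a difference of -0.09 (95% interval -0.26 to 0.09), and LMO2 was higher in both with a difference of -0.17 (-0.39 to 0.05). With library totals in place of TMM factors these became -0.25 and -0.34 and passed. How the day 6 differences depend on the control was not tested. Mean JMJD1C in NOMO1 was 56.6 CPM under VTP-50469 day 6, against 176 in DMSO day 6 but 65.1 in DMSO day 3. Mean LMO2 there was 184 CPM, against 121 in DMSO day 6 but 177 in DMSO day 3. For the combination at day 6, 4 members were higher and 3 lower, where 18.6% of all genes tested were higher and 16.3% lower. RUNX2 differed most among the 6 well-measured members, by 2.25 ± 0.17, and JMJD1C by -1.30 ± 0.13. For selumetinib over DMSO day 3, 3 were higher and 2 lower, where 20.1% of all genes tested were higher and 13.6% lower. With DMSO day 6 as the control in both lines, 2 of these 5 calls were left, SATB1 at 1.15 and RUNX2 at -1.80. Over all 18707 genes, 870 were then higher and 927 lower, against 3755 higher and 2546 lower with DMSO day 3.

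EYA1 and IKZF2 were at the limit of detection. EYA1 had 201 counts over all 42 libraries. Its DMSO libraries held at most 3 counts in OCI-AML3 and 9 in NOMO1. It passed the low-count filter of the OCI-AML3 fit and of the joint fit only through treated libraries. Its calls there as higher, and its line difference, are therefore not independent of the filter. In OCI-AML3 it had 7, 16 and 7 counts in the combination at day 3, against 0, 0 and 0 in DMSO day 3, at least 9.68-fold higher with a floor of 3 counts over the group. At day 6 it had 6, 6 and 28 counts in the combination, against 0, 1 and 3 in DMSO day 6, which edgeR's quasi-likelihood fit put at 3.39 ± 1.22 on the log2 scale (adjusted p = 0.0222). Of those 40 counts replicate 3 held 28, and the call was lost without it (2.26, adjusted p = 0.172), without DMSO day 6 replicate 1 (2.85) or replicate 2 (3.23), and without a filter on low counts (3.37, adjusted p = 0.0743). The day 3 call was lost against DMSO day 6 (2.68, adjusted p = 0.0717). VTP-50469 at day 6 gave 8, 11 and 3 counts, which overlapped DMSO and did not pass. In NOMO1 EYA1 had 25 counts in DMSO day 6, against which 10 under VTP-50469 and 6 in the combination did not pass. It had 30 counts under selumetinib in NOMO1, against 8 in DMSO day 3 that all fell in replicate 2, and passed only without that replicate (adjusted p = 0.00427). For the combination at day 6, the line difference of EYA1 was -5.17 ± 1.66 (adjusted p = 0.0126), lost without OCI-AML3 combination replicate 3.

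IKZF2 was tested only in the joint fit. In OCI-AML3 it had 10, 7 and 12 counts under selumetinib and 4, 4 and 15 under VTP-50469 at day 6, against 0, 0 and 2 in DMSO day 3 and 0, 1 and 1 in DMSO day 6. The ratio was 13.5 for selumetinib over DMSO day 3 (95% interval 3.42 to 117) and 10.8 for VTP-50469 over DMSO day 6 (2.67 to 94.5). These intervals cover counting error only, and in edgeR's quasi-likelihood test without a filter on low counts neither comparison passed (adjusted p of 0.123 and 0.173). The combination at day 6 had 29, 0 and 0 counts, all in replicate 1. Where other settings let IKZF2 through the filter, that comparison passed with scaling without mitochondrial genes (3.83, adjusted p = 0.0361) and without a filter (3.82, adjusted p = 0.0484), on the counts of that library alone. In NOMO1 it had 5, 2 and 5 counts under VTP-50469 at day 6, against 0 in each DMSO library, at least 4.13-fold higher with a floor of 3 counts over the group, which did not pass without a filter either (adjusted p = 0.0825). IKZF2 passed in none of the line differences.

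Across the 7 groups of OCI-AML3, the mean log2 CPM of RUNX1, RUNX2, ZEB2 and JMJD1C varied together, with Pearson r from 0.90 for RUNX1 with RUNX2 to 0.99 for ZEB2 with JMJD1C. SATB1 had r of 0.58 to 0.67 with these genes and -0.86 with LMO2. In NOMO1 RUNX1 with ZEB2 gave 0.83 and JMJD1C with SATB1 0.80, while RUNX1 with JMJD1C gave 0.01 and RUNX2 with JMJD1C -0.49. These are descriptions over 7 group means that share treatments, libraries and their scaling.

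**Figure D5:**
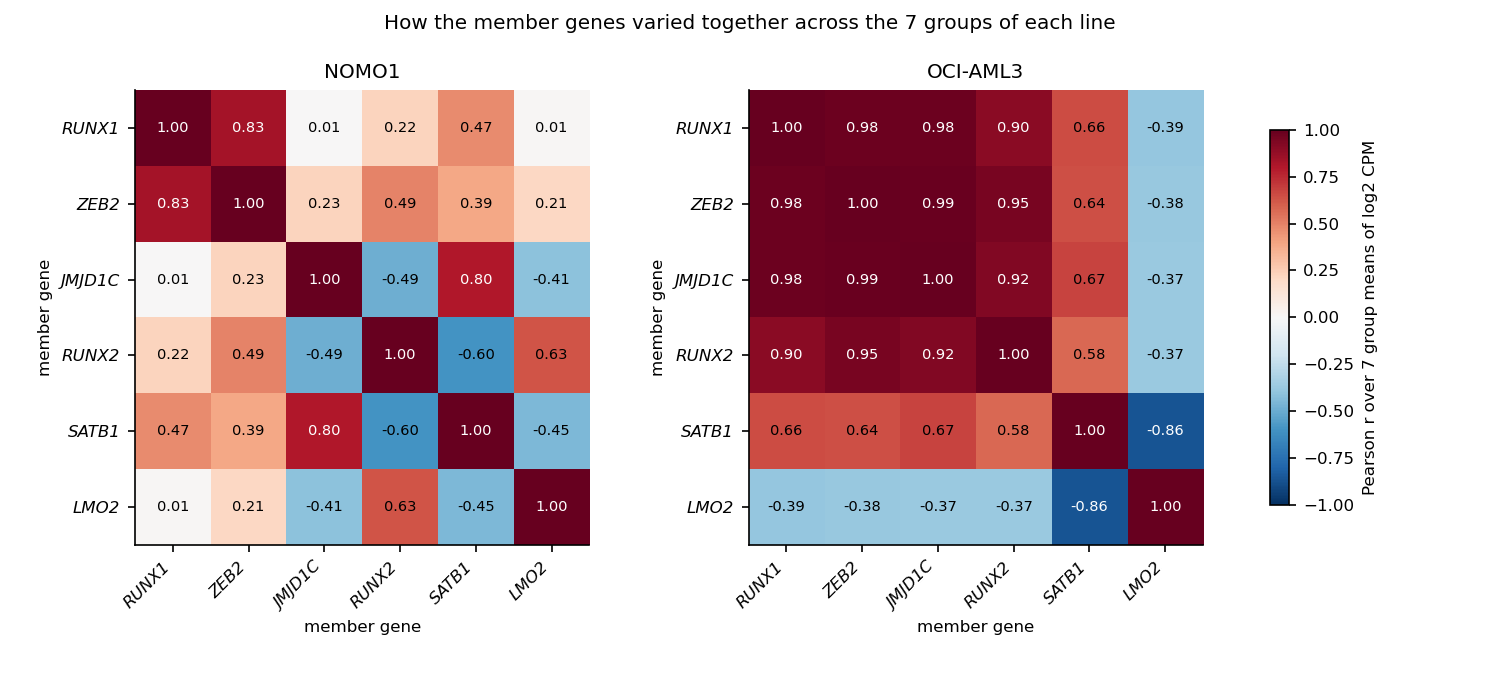
Each cell is the Pearson r between 2 members over the 7 group means of log2 CPM in NOMO1 (left) and OCI-AML3 (right), from blue (negative) to red (positive). RUNX1, ZEB2, JMJD1C and RUNX2 form a red block in OCI-AML3, which in NOMO1 is kept for RUNX1 with ZEB2 at 0.83.

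Among 12323 genes, the patterns most like each member over the 14 group means, with the mean of each line removed, were CSF3R and RCSD1 for RUNX1 (both r = 0.957), GPR137B (0.961) and BST1 (0.956) for RUNX2, and KDM2A (0.961) and MTMR14 (0.956) for ZEB2. For SATB1 they were TMEM116 (0.908) and TBC1D1 (0.883), for JMJD1C CLPX (0.906) and CRADD (0.868), and for LMO2 TIMP1 (0.923) and SLC48A1 (0.918). For EYA1 they were SS18 (0.903) and COLQ (0.899), and for IKZF2 CUEDC1 (0.910) and KIAA1211L (0.891), where the low counts of the member limit the measure.

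Other menin and KMT2A targets, a list of 20 that includes HOX genes, MEIS1, PBX3, FLT3 and BCL2, mostly fell under VTP-50469 at day 6. In NOMO1 13 of 19 tested were lower and 4 higher (25.1% and 23.7% of all genes), with a median log2 fold change of -1.63, against -0.01 over all genes. MEIS1, the cofactor of HOX proteins, changed by -6.76 ± 0.23, PBX3, another such cofactor, by -3.02 ± 0.13, and HOXA9 by -2.82 ± 0.14. Between the NOMO1 DMSO groups, 10 of these 19 were higher at day 6 than at day 3 and 0 lower, with a median of 0.34. Of all genes, 28.8% were higher and 22.3% lower between those groups. The part of the control in the fall was not tested. In OCI-AML3 10 of 17 tested were lower and 4 higher (16% and 18.8% of all genes), with a median of -0.37, against 0.01 over all genes. MBNL1, a splicing regulator, changed by -0.85 ± 0.07, FLT3, a receptor tyrosine kinase, by -1.64 ± 0.12, and BCL2, an inhibitor of apoptosis, by -1.94 ± 0.14. Over VTP-50469 alone, the combination at day 6 stood higher for 9 of 19 and lower for 4 in NOMO1, and higher for 9 of 17 and lower for 1 in OCI-AML3. Of all genes, 12.4% were higher and 15.2% lower in this comparison in NOMO1, and 16.7% higher and 24.6% lower in OCI-AML3. FLT3 led both, at 1.52 ± 0.14 in NOMO1 and 1.97 ± 0.12 in OCI-AML3. The largest adjusted p of these 8 values was 4.01e-09 (edgeR quasi-likelihood).

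Relatives and partners of the members, a list of 19, were tested in the same way. Under VTP-50469 at day 6, 4 of 13 tested were higher and 3 lower in NOMO1, where 23.7% of all genes tested were higher and 25.1% lower, with a median log2 fold change of 0.04. RUNX3, the remaining RUNX factor, changed by 0.89 ± 0.10 and ZEB1, the relative of ZEB2, by 1.16 ± 0.24. In OCI-AML3 2 of 14 were higher and 7 lower, where 18.8% of all genes tested were higher and 16% lower, with a median of -0.21. IKZF1, the founding Ikaros gene, changed by -0.59 ± 0.07 and TAL1, the partner that LMO2 joins to LDB1, by -2.40 ± 0.36. The largest adjusted p of these 4 values was 0.000168 (edgeR quasi-likelihood).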

How the data were processed

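The libraries were paired-end and unstranded, per the labels' protocols, and the raw counts per gene that the authors deposited stand in 1 table (GENCODE 30 per the file headers). The submitters' processing notes list STAR 2.11a and featureCounts from Subread 2.0.6 on hg38, FastQC 0.11.9 with MultiQC 1.14, and DESeq2 1.44.0. Left out were 3 columns that match no labelled library (day 6 names for OCI-AML3 selumetinib, with the values of its labelled libraries), 1 gene with an empty cell and 1 row without a gene. The labels write the number of the menin inhibitor in 2 ways, and the form of the treatment protocol is used.

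For each line, edgeR 4.0.16 (R 4.3.3) fitted a mean for each of 7 groups to its 21 libraries, with filterByExpr, TMM and robust quasi-likelihood dispersions. P-values were adjusted by Benjamini and Hochberg over all genes of a comparison, at 0.05. The filter kept 16561 genes for NOMO1 and 16384 for OCI-AML3. A joint fit of the 42 libraries, with 18707 genes, gave the differences between the lines. The code was tested on simulated counts. Replicate numbers were not used as pairs, since libraries of equal number had correlations of only -0.076 to 0.049 in NOMO1 and -0.089 to 0.041 in OCI-AML3 once group means were removed. Log2 CPM for patterns used a prior count of 2, over genes with at least 5 CPM in 1 group. Exon lengths, positions and overlaps are from GENCODE 29 (58595 of 58868 genes matched by identifier), and promoters from RefSeq. Genes named are all 8 members, the 2 genes most like each, and up to 3 called genes of smallest adjusted p per list and comparison described, of which 1 is not reported here. The members and lists were chosen with earlier results of these data known. Within a line several comparisons share 1 DMSO group and are not independent.

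The alternatives tried were another tool (DESeq2 1.42.0), other scalings (RLE size factors, library totals, mitochondrial genes removed), other filters (none, or 1 CPM in 3 libraries), a replicate block, a fit of only the compared groups, DMSO day 6 as the control, and each library left out in turn.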

Additional observations from a re-analysis of the deposited data

Results flagged for a closer look

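Each of these results was picked out because the effect of a treatment over DMSO differed between NOMO1 and OCI-AML3 in edgeR's quasi-likelihood test of the difference itself. All values are the log2 fold change in NOMO1 minus that in OCI-AML3.

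Under VTP-50469 at day 6 the difference was 1.09 for RUNX1, 2.98 for RUNX2, 1.46 for ZEB2 and -1.17 for JMJD1C. Under the combination at day 6 it was 0.45 for RUNX1, 2.25 for RUNX2, 0.97 for ZEB2, 0.23 for SATB1, -1.30 for JMJD1C, -0.58 for LMO2 and -5.17 for EYA1. Under selumetinib over DMSO day 3 it was -1.44 for RUNX2, 0.92 for ZEB2, 1.61 for SATB1, 1.36 for JMJD1C and -0.29 for LMO2. With DMSO day 6 as the control in both lines, RUNX2 (-1.80) and SATB1 (1.15) were still called. ZEB2 (-0.00033), JMJD1C (-0.14) and LMO2 (0.19) then were not. Both day 6 comparisons used DMSO day 6 only, where mean JMJD1C in NOMO1 was 176 CPM, against 65.1 in DMSO day 3. EYA1 passed the filter of the joint fit only through treated libraries.

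The SATB1 difference under the combination, with an adjusted p of 0.0349, did not pass without any 1 of 6 libraries (NOMO1 combination replicate 2, NOMO1 DMSO day 6 replicates 2 and 3, OCI-AML3 combination replicates 1 and 2, OCI-AML3 DMSO day 6 replicate 1), at 0.18 to 0.23, nor with DESeq2 or RLE size factors (both 0.19), library totals (0.07), no filter (0.18) or mitochondrial genes left out (0.16). The LMO2 difference under selumetinib, with an adjusted p of 0.0372, did not pass without any 1 of 9 libraries (NOMO1 selumetinib replicates 2 and 3, OCI-AML3 selumetinib replicates 2 and 3, NOMO1 DMSO day 3 replicates 2 and 3, each OCI-AML3 DMSO day 3 library), at -0.28 to -0.19, nor with library totals (-0.02). The RUNX1 difference under the combination fell to 0.29 with library totals (adjusted p = 0.0601). Without OCI-AML3 combination replicate 3 the EYA1 difference was -4.05 (adjusted p = 0.0711), and without OCI-AML3 combination replicate 1 the IKZF2 difference passed (adjusted p = 0.0309), with 0 counts left in that group.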

How the results depend on the processing

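Over the alternatives other than leaving out a library, 1281 values of single members kept their direction and their side of the threshold, 28 lost a call and 23 gained one. A further 14 changed sign without a call, and 9 changed sign with a call before or after the change of setting. Without 1 library, 1181 kept both direction and side, 39 lost a call, 9 gained one and 31 changed sign without a call. With only the compared groups in the fit, members called were 2 (of 4) for VTP-50469 day 3 in OCI-AML3, 2 (of 5) for the combination over VTP-50469 at day 3 in OCI-AML3 and 3 (of 5) for VTP-50469 day 3 in NOMO1, while all genes called were 788 higher and 671 lower, 2573 and 3351, and 3213 and 3074 in these fits, against 1064 and 724, 2980 and 3927, and 4922 and 3758 with all groups. With DMSO day 6 as the control they were 1 (of 2) for the OCI-AML3 interaction and 2 (of 5) for the line difference under selumetinib. The OCI-AML3 interaction kept 1 to 2 members when 1 library was left out. With DMSO day 6 as the control some values changed sign. Called with that control in NOMO1 were ZEB2 under VTP-50469 day 3 at -0.53 and LMO2 under the combination day 3 at 0.20. The same held for JMJD1C and ZEB2 in the interaction, at 0.41 and 0.69. LMO2 under selumetinib in NOMO1, at 0.049, was not called with that control. Nor were JMJD1C at -0.14, LMO2 at 0.19 and ZEB2 at -0.00033 in the line difference under selumetinib. JMJD1C under the NOMO1 combination day 3 became 0.25 with library totals and passed. The cause was not tested. Library totals moved the median log2 fold change of all genes by over 0.1 in all NOMO1 comparisons with DMSO day 3 (to 0.39 for VTP-50469, with 7394 genes higher and 2033 lower, against 4922 and 3758 with TMM), and with them LMO2 under selumetinib (-0.12) and the combination day 3 (-0.04) and RUNX2 under selumetinib (-0.41) did not pass. The replicate block left the members called at 6 for VTP-50469 day 6 in both lines and changed no count of members called in any other comparison by over 1.5 times. With 3 libraries a group, EYA1 and IKZF2 at a few counts per library are limited by depth.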
